A study of Homo sapiens with 6 samples.

Results

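Cathepsins, the proteases of the lysosome, were examined in T98G cells, an established human glioblastoma line that had lost CBX8 through Cas9 editing. The members were the rows of the deposited count table whose symbol is CTSA, CTSB, CTSC, CTSD, CTSF, CTSH, CTSK, CTSL, CTSO or CTSZ, which gave 10 of the 57133 rows. The sgCBX8 knockout line carried either the empty doxycycline-inducible TetO-FUW vector (CBX8 KO, 3 libraries) or the same vector with V5-tagged WT CBX8 (WT CBX8 re-expression, 3 libraries). Both lines had been made by lentiviral transduction, carried the rtTA activator and had been selected with puromycin and hygromycin. According to the labels, all 6 libraries received doxycycline at 1 μg/ml for 72 h. The sample labels give the re-expression libraries a wild-type genotype, and their titles and the study's methods describe re-expression in the knockout line, which was followed here. No library of parental T98G cells was analysed here, so both groups lack the unedited endogenous state. Whether a line was 1 clone or a pool is not given in the sources used here, and differences between separately selected lines cannot be told apart from an effect of CBX8. Whether the libraries of a group came from separate cultures is also not given, so p-values measure the spread between these libraries, which may be technical.

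Cathepsins are made as inactive precursors, carried to lysosomes largely by mannose 6-phosphate receptors and activated there by removal of a propeptide. Most are cysteine proteases of the papain family, whereas CTSD is an aspartic protease and CTSA a serine carboxypeptidase. The cysteine cathepsins include exopeptidases, which trim ends of proteins, and endopeptidases, which cut within them, and cystatins inhibit them. In glioma they have been studied for their part in degrading the matrix during invasion. CBX8 is a Polycomb repressive complex 1 subunit that binds methylated histone H3 and DNA through its chromodomain.

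To show the DNA these members carry at their starts, promoters were taken from RefSeq (GRCh38.p14), which matched 7 of the 10 members. CTSB, CTSK and CTSO had no entry. The hexamer CACGTG, an E-box that reads the same on both strands and forms the core of the element bound by TFEB-type activators of lysosomal genes, was searched in windows of 300 bases around each start. It occurred in 3 of the 7 members, CTSA, CTSD and CTSF, and in 7.26% of all 35116 RefSeq windows of that length. CG dinucleotides numbered 22 to 43 in the members' windows, where the median of all windows was 14. CACGTG itself holds a CG, so these windows and all windows are not alike for this search, and no enrichment is read. The 130 bases before the start are printed 5′ to 3′ on the strand of the gene for the members with the hexamer and for CTSC, the member that fell most, with each CACGTG in capitals. They lie at chr20:45891205-45891334 on the plus strand for CTSA, and on the minus strand at chr11:1763928-1764057 for CTSD, chr11:66568607-66568736 for CTSF and chr11:88337737-88337866 for CTSC.
CTSA: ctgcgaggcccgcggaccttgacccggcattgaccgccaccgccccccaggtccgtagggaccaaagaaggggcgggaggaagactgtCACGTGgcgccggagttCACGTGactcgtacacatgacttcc
CTSD: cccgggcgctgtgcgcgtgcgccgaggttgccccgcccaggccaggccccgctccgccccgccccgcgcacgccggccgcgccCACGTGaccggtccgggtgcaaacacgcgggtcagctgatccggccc
CTSF: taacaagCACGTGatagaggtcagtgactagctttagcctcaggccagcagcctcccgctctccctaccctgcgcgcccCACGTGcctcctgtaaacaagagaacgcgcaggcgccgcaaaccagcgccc
CTSC: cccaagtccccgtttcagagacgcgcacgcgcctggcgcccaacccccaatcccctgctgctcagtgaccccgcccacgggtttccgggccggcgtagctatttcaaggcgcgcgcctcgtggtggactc
In CTSF the hexamers began 123 and 51 bases before the start, in CTSA 42 and 25 bases before it and in CTSD 47 bases before it. A match describes the letters alone, since no binding was measured in these files.

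Total counts lay between 7950190 and 8659796 per library. As a check of the labels, CBX8 had 83 to 104 counts in the CBX8 KO libraries and 27791 to 31408 in the re-expression libraries. Of 7 markers of glioblastoma lines, VIM, CD44 and FN1 were abundant, GFAP and OLIG2 lay below 5 CPM, NES was below 1 CPM and SOX2 was listed at 0. CPM, the usual count per unit of sequencing depth, were taken on library sizes normalized by TMM. Within each group, pairs of libraries differed beyond counting noise (chi-square per degree of freedom 1.97 to 2.90), and all 6 were treated as separate samples. Intervals and detection floors given for counts cover counting error only. The reads carried no molecular identifiers to tell PCR copies from separate molecules.

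To ask which cathepsin transcripts differed with CBX8, the re-expression libraries were set against CBX8 KO with the quasi-likelihood test of edgeR over all 14461 genes that passed its count filter. Of the 10 members, 9 passed the filter. CTSF, CTSH and CTSZ rose, CTSB and CTSC fell, and CTSA, CTSD, CTSK and CTSL did not pass FDR < 0.05. Thus 5 of 9 members were called, beside 12.9% of all tested genes. In the upward direction 3 of 9 were called, beside 6.23% of all tested genes, and in the downward direction 2 of 9, beside 6.63%. The median log2 fold change was 0.07 over the 9 members and 0.005 over all tested genes. The 3 re-expression libraries did not overlap the 3 CBX8 KO libraries for 5 of 9 members, those called, beside 28.9% of all tested genes. Because the members were chosen with earlier results of these data known, these shares are not read as an enrichment. In bulk RNA, fewer cells of a kind and less RNA per cell cannot be told apart.

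**Figure D1:**
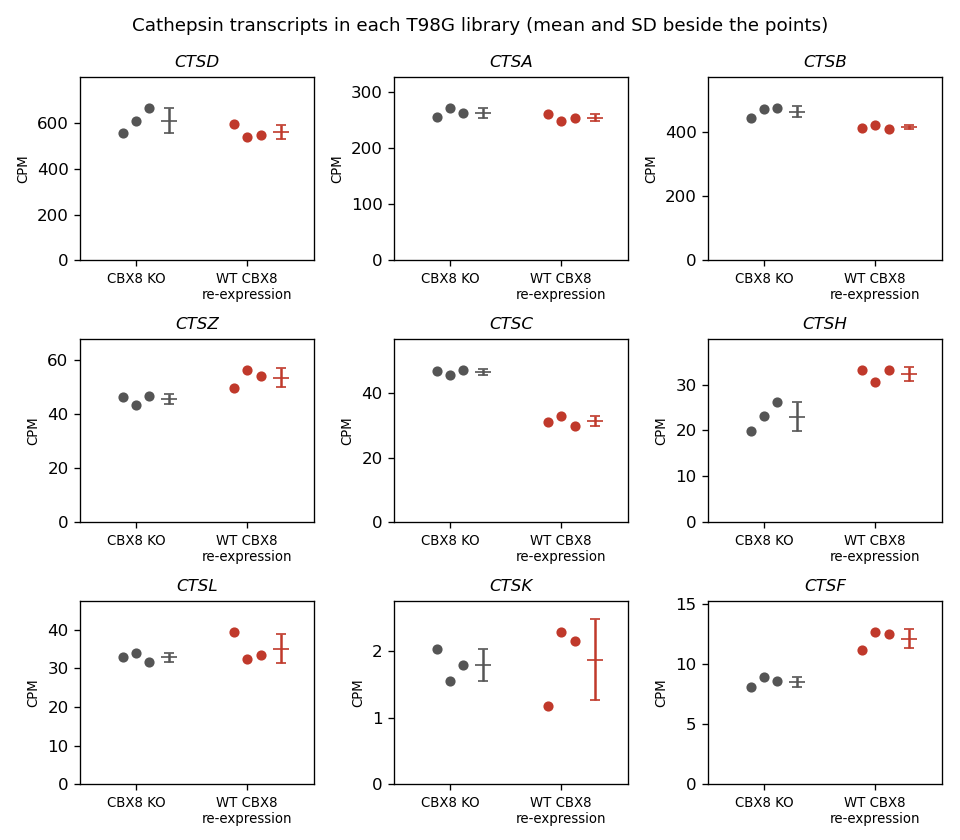
Each panel plots one cathepsin in CPM, on an axis that starts at 0, with a point for each library (grey, CBX8 KO; red, WT CBX8 re-expression) and the mean with its SD (n = 3) beside the points. The groups separate for CTSB, CTSZ, CTSC, CTSH and CTSF and overlap for CTSD, CTSA, CTSL and CTSK.

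CTSF is a papain-type cysteine endopeptidase whose long propeptide holds a cystatin-like domain, and loss of its activity causes an adult form of neuronal ceroid lipofuscinosis. The gene (ENSG00000174080.12) lies on the minus strand at chr11:66563464-66568879 of hg38, and its canonical GENCODE transcript has 13 exons and 2044 bases. No exon of another annotated gene overlaps this transcript. CTSF had 64, 75 and 67 counts in CBX8 KO replicates 1 to 3 and 95, 111 and 105 counts in re-expression replicates 1 to 3, equal to 8.08, 8.91 and 8.57 CPM and to 11.2, 12.7 and 12.5 CPM. All 3 re-expression libraries were above all 3 CBX8 KO libraries. The means were 8.52 ± 0.42 and 12.1 ± 0.83 CPM (SD, n = 3 each), a rise of 42.0% or 0.51 on the log2 scale (edgeR adjusted p = 0.0096, standard error 0.13). For a single gene, the smallest two-sided exact permutation p that 3 libraries against 3 allow is 0.1. The call was lost with DESeq2 (adjusted p = 0.076) and without WT CBX8 re-expression replicate 2 (edgeR adjusted p = 0.058). The study drew its qRT-PCR genes from those it reported as repressed upon CBX8 re-expression in its RNA-seq, and its primers include CTSF. In these counts CTSF was higher upon re-expression, which is the opposite direction. The cause of this difference was not tested. No qRT-PCR value was used here, and the direction given is that of these counts. Among the 14461 tested genes, 692 had a higher log2 fold change than CTSF.

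CTSF was a small part of the family. The 10 members took 0.137% to 0.154% of the counts of a library, and the ranges of the groups overlapped. CTSD, CTSB and CTSA together held 87.8% to 89.6% of those counts. CTSF held 0.572%, 0.592% and 0.548% of the members' counts in CBX8 KO replicates 1 to 3 and 0.779%, 0.924% and 0.909% in the re-expression libraries. With 95% Wilson intervals, the CBX8 KO shares reached at most 0.741%, and the re-expression shares reached down to 0.638%. The group means were 0.571 ± 0.022% and 0.870 ± 0.080% (SD, n = 3 each). As a share of the family, CTSF was higher in every re-expression library than in any CBX8 KO library.

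**Figure D2:**
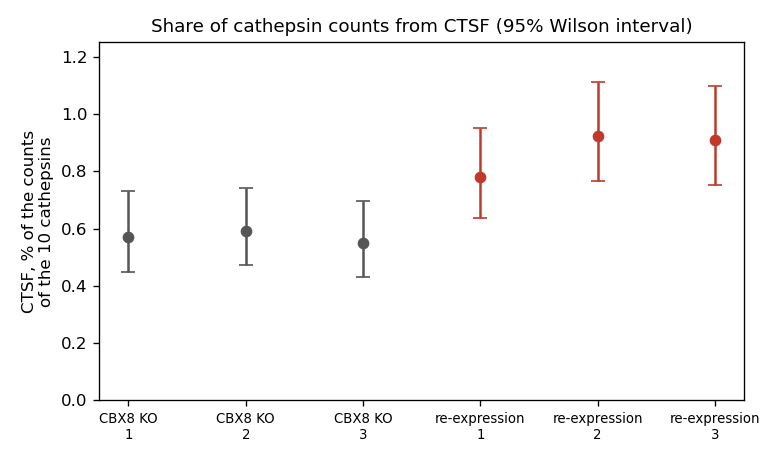
The vertical axis gives CTSF counts as a percentage of the counts of the 10 cathepsins, with 1 point for each library and bars for the 95% Wilson interval. The CBX8 KO libraries lie between 0.548% and 0.592% and the re-expression libraries between 0.779% and 0.924%.

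Shares of counts, as given above, also depend on transcript length, so levels were compared per length, as CPM per kilobase of canonical transcript. CTSD stood highest, at 297 ± 26.4 in CBX8 KO and 273 ± 14.8 upon re-expression (SD, n = 3 each). Below it came CTSA at 142 ± 4.60 and CTSB at 124 ± 4.66 in CBX8 KO, each separated over all 6 libraries from its neighbours. CTSZ, CTSC, CTSL and CTSH followed at 30.3, 25.0, 19.9 and 10.7 in CBX8 KO. CTSC and CTSL overlapped and exchanged places, with 16.8 ± 0.85 for CTSC and 21.2 ± 2.31 for CTSL upon re-expression. CTSF was the eighth of the 9 in both groups, at 4.17 ± 0.21 and 5.93 ± 0.40, and CTSK was last at 1.10 ± 0.15 and 1.15 ± 0.37. When lengths were taken from the union of all annotated exons, CTSF ranked 6 of 9 in CBX8 KO, so its place depends on the transcript assumed.

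CTSL and CTSK, papain-type endopeptidases like CTSF, did not pass the test. CTSL, which degrades proteins in lysosomes and can be secreted, had 32.9, 34.0 and 31.7 CPM in CBX8 KO and 39.5, 32.3 and 33.6 CPM upon re-expression. The groups overlapped, with re-expression replicate 1 above the rest. The log2 fold change of CTSL was 0.09 (95% interval -0.08 to 0.27, edgeR adjusted p = 0.57), and it fell to -0.00061 without that library. Its 6 pseudogene rows held at most 1 count in a library. CTSK, the collagen-degrading enzyme of osteoclasts, had 10 to 20 counts per library. Its log2 fold change was 0.07, with a 95% interval of -0.57 to 0.71 (edgeR adjusted p = 0.93), which leaves room for a change in either direction.

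The remaining calls were CTSC, CTSH, CTSZ and CTSB, which have exopeptidase activity and went in both directions. CTSA, a carboxypeptidase too, was not called. CTSC, also called dipeptidyl peptidase 1, removes dipeptides from the amino end and activates granule serine proteases of immune cells. It had 47.1, 45.7 and 47.4 CPM in CBX8 KO and 31.2, 33.1 and 30.0 CPM upon re-expression. Every re-expression library lay well below every CBX8 KO library, and within a group the values were close. Its means of 46.7 ± 0.86 and 31.4 ± 1.58 CPM (SD, n = 3 each) gave a log2 fold change of -0.57 (edgeR adjusted p = 9.5e-06, standard error 0.08). This was the lowest among the members, 263 of the tested genes lay lower, and the call held under all 15 alternatives, which changed the scaling, the filter, the tool or the model or left out 1 library.

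CTSH is an aminopeptidase of the same family. It had 19.8, 23.2 and 26.1 CPM in CBX8 KO and 33.2, 30.5 and 33.2 CPM upon re-expression, with no overlap although the CBX8 KO libraries spread more widely. The means were 23.0 ± 3.15 and 32.3 ± 1.55 CPM (SD, n = 3 each). On the log2 scale CTSH rose by 0.49 (edgeR adjusted p = 0.0013, standard error 0.10). It was called under all 15 alternatives, with a log2 fold change between 0.39 and 0.58.

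CTSZ, a carboxypeptidase also known as cathepsin X, rose less. It had 46.2, 43.4 and 46.8 CPM in CBX8 KO and 49.7, 56.4 and 54.3 CPM upon re-expression, a log2 fold change of 0.24 (edgeR adjusted p = 0.030, standard error 0.07). The groups did not overlap, but the gap between them was small. CTSZ was called under 8 of 15 alternatives. It lost its call with DESeq2 (adjusted p = 0.12), and in edgeR without the low-count filter (0.051), with the replicate number as a block (0.058), without CBX8 KO replicate 1 (0.064) or 2 (0.17) and without re-expression replicate 2 (0.16) or 3 (0.090).

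CTSB, which acts as a dipeptidyl carboxypeptidase and as an endopeptidase, was the most abundant cysteine cathepsin. It fell from 442, 470 and 474 CPM in CBX8 KO to 411, 419 and 408 CPM upon re-expression. The groups did not overlap, and the means of 462 ± 17.4 and 413 ± 6.06 CPM (SD, n = 3 each) differed by 10.6%. The log2 fold change was -0.16 (edgeR adjusted p = 0.023, standard error 0.05), and it was called under 8 of 15 alternatives. The call was lost with library size scaling (edgeR adjusted p = 0.15), with the replicate block (0.060), without CBX8 KO replicate 2 (0.11) or 3 (0.074) and without re-expression replicate 1 (0.0504), 2 (0.059) or 3 (0.060).

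The aspartic and serine members did not pass the test. CTSD, the main aspartic protease of lysosomes, had 558, 607 and 666 CPM in CBX8 KO and 595, 538 and 549 CPM upon re-expression. The groups overlapped, and the log2 fold change was -0.12 (95% interval -0.24 to -0.01, edgeR adjusted p = 0.17). Without CBX8 KO replicate 1, the lowest of its group, it passed at -0.19 (edgeR adjusted p = 0.044). CTSA protects beta-galactosidase (GLB1) and neuraminidase in a lysosomal complex. It had 255 to 272 CPM in CBX8 KO and 249 to 262 CPM upon re-expression, with overlap. Its log2 fold change was -0.05 (95% interval -0.14 to 0.05, edgeR adjusted p = 0.59), and 0.0072 with library size scaling. GLB1, its partner, had a log2 fold change of -0.06 (edgeR adjusted p = 0.70). Exons of CTSA overlap those of PLTP on the opposite strand, exons of CTSD overlap other annotated genes on both strands, and the counting program and its strand setting are not given in the sources used here.

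CTSO, a cysteine cathepsin, was listed at 0 in all 6 libraries. With 3 counts as the limit that a count of 0 allows, its level would be below 0.343 to 0.384 CPM. The table also listed the lysosomal enzymes NEU1 and GALC at 0 in all libraries, so nothing is drawn from these zeros.

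**Figure D3:**
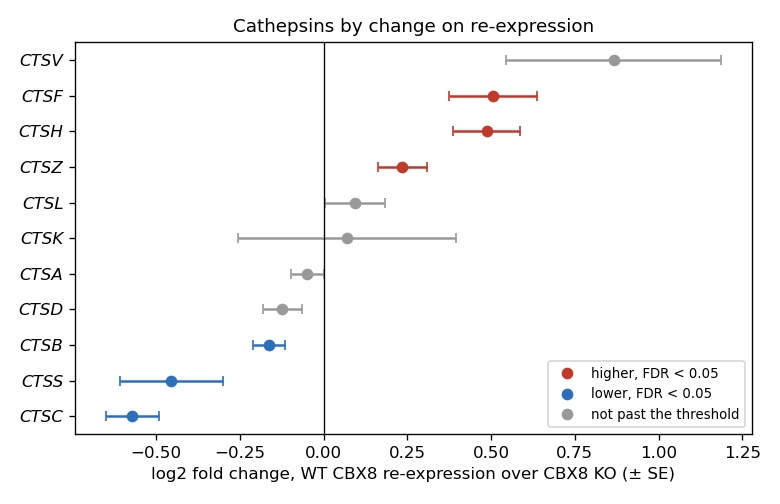
The horizontal axis gives the log2 fold change of WT CBX8 re-expression over CBX8 KO for the 11 cathepsins tested, with bars for the standard error, in red for higher, blue for lower and grey for not past FDR < 0.05. CTSF (0.51) stands beside CTSH (0.49) at the upper end of the members, and CTSC (-0.57) is the lowest.

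Of 5 other cathepsins outside the members, 2 passed the count filter. CTSS, an endopeptidase of antigen-presenting cells, had 80, 84 and 80 counts in CBX8 KO and 55, 57 and 77 upon re-expression. Its log2 fold change of -0.45 (standard error 0.15) passed narrowly (edgeR adjusted p = 0.0494). CTSS was called under 5 of 15 alternatives. The call was lost with DESeq2 (adjusted p = 0.20), and in edgeR with upper quartile scaling (0.057), library size scaling (0.083), legacy set to FALSE (0.056) or the replicate block (0.059). It was also lost without any 1 CBX8 KO library (edgeR adjusted p = 0.11, 0.11 and 0.10 without replicates 1 to 3) and without re-expression replicate 1 (0.17) or 2 (0.22). CTSV, the closest relative of CTSL, had 9 to 14 counts in CBX8 KO and 16 to 29 upon re-expression, with no overlap. Its log2 fold change of 0.87 did not pass (edgeR adjusted p = 0.078, standard error 0.32), except without re-expression replicate 2 (0.046). CTSW had 4 to 11 counts per library, CTSE at most 1, and CTSG was listed at 0. Because CTSC, CTSS and CTSH are abundant in macrophages, 6 macrophage markers were examined. AIF1 was listed at 0, the other 5 had a count somewhere, and the summed level of the list was 2.78 to 4.86 CPM in CBX8 KO and 3.53 to 4.52 CPM upon re-expression. The list thus summed to under 5 CPM in every library, and its part in the values of these cathepsins was not tested.

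The wider pathway was described from lists of 92 genes, of which 76 were tested. Over them, 9 rose and 4 fell, so 17.1% were called, beside 12.9% of all tested genes. Their median log2 fold change was 0.06. Of 9 cystatins, the inhibitors of cysteine cathepsins, 2 were tested. CSTB, the intracellular inhibitor, rose from 72.6 ± 4.61 to 86.3 ± 2.58 CPM (SD, n = 3 each), or by 0.25 on the log2 scale (edgeR adjusted p = 0.0054). The secreted CST3 had 92.4 ± 9.42 and 90.4 ± 5.74 CPM, and its log2 fold change was -0.03 (edgeR adjusted p = 0.82).

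Of 12 genes for transport and processing of lysosomal enzymes, all tested, 2 rose and 1 fell. That was 25% of the list, beside 12.9% of all tested genes. LGMN, the asparaginyl endopeptidase that processes precursors of cysteine cathepsins, had 101, 93 and 81 counts in CBX8 KO and 118, 144 and 148 upon re-expression. LGMN rose by 0.49 on the log2 scale (edgeR adjusted p = 0.0087, standard error 0.12), and it lost the call with DESeq2 (adjusted p = 0.052), without re-expression replicate 2 (0.05001) and without replicate 3 (0.056). IGF2R, the large mannose 6-phosphate receptor, rose by 0.17 (edgeR adjusted p = 0.036) and M6PR, the small one, had a log2 fold change of -0.04 (0.69). SCARB2, a lysosomal membrane protein and sorting receptor, fell by 0.19 on the log2 scale (edgeR adjusted p = 0.025). IGF2R was called under 7 of 15 alternatives. It lost its call with DESeq2 (adjusted p = 0.088) and in edgeR without the low-count filter (0.052), with the replicate block (0.058) and without any 1 CBX8 KO library or re-expression replicate 2 or 3 (0.054 to 0.17). SCARB2 lost its call with DESeq2 (0.052), with library size scaling (0.13) and without CBX8 KO replicate 1 or 2 or re-expression replicate 2 or 3 (0.062 to 0.22).

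Of 36 other lysosomal hydrolases and activators, 33 were tested, 3 rose and 2 fell, with a median log2 fold change of 0.08. Thus 15.15% of those tested were called, close to the 12.9% of all tested genes. GLA, alpha-galactosidase A, averaged 77.8 ± 2.58 CPM in CBX8 KO against 59.1 ± 1.61 in the re-expression libraries (SD, n = 3 each). It fell by 0.40 on the log2 scale (edgeR adjusted p = 3.6e-05) and held under all alternatives. LIPA, the acid lipase, fell by 0.19 on the log2 scale (edgeR adjusted p = 0.044) and was called under 5 of 15 alternatives. Its edgeR adjusted p lay between 0.075 and 0.29 without any 1 CBX8 KO library or re-expression replicate 1 or 2, and was 0.15 with DESeq2. It was 0.064 with upper quartile scaling, 0.16 with library size scaling, 0.073 with the replicate block and 0.052 with limma voom. ARSA, arylsulfatase A, rose by 0.45 (edgeR adjusted p = 0.0050) and held under all alternatives. SMPD1, acid sphingomyelinase, rose by 0.33 (edgeR adjusted p = 0.010), with 0.056 without CBX8 KO replicate 2 and 0.064 without re-expression replicate 1. GAA, acid alpha-glucosidase, rose by 0.31 (edgeR adjusted p = 0.011), with 0.058 without CBX8 KO replicate 1.

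Of 16 subunits of the V-ATPase, the pump that acidifies lysosomes, 15 were tested, 3 rose and 0 fell by edgeR. Thus 20% were called, beside 12.9% of all tested genes, of which 6.23% were called higher and 6.63% lower. At an unadjusted p under 0.05 there were 6 higher and 2 lower, a threshold at which all tested genes were not counted. DESeq2 called 0 in either direction, and over all 14461 tested genes it called 501 higher and 676 lower. ATP6V0A1 rose by 0.24, ATP6V1E1 by 0.20 and ATP6AP1 by 0.20 (edgeR adjusted p = 0.020, 0.015 and 0.022). All 3 lost the call with DESeq2 (adjusted p = 0.085, 0.072 and 0.093). In edgeR, ATP6V0A1 lost it without CBX8 KO replicate 1 or 2 or re-expression replicate 1 or 3 (0.0504 to 0.15), ATP6V1E1 without CBX8 KO replicate 1 or re-expression replicate 2 (0.060 and 0.10), and ATP6AP1 without CBX8 KO replicate 1 or 2 or re-expression replicate 1 or 2 (0.053 to 0.15). Of 10 lysosomal membrane proteins 9 were tested and 0 were called by edgeR, DESeq2 or limma voom. Over all tested genes edgeR called 12.9%, and limma voom called 874 higher and 950 lower. In this list 1 was lower at an unadjusted p under 0.05. Of the 4 MiT/TFE factors, which bind E-boxes of this kind, 3 were tested and 0 were called by these tools. By edgeR this again stood beside 12.9% of all tested genes, and 0 passed at an unadjusted p under 0.05. With 9 and 3 genes tested, the 0 calls of these lists are not read as a lack of change. TFEB had a log2 fold change of 0.34 (95% interval -0.02 to 0.70, edgeR adjusted p = 0.26), TFE3 of -0.02 (0.88) and MITF of 0.11 (0.44).

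**Figure D4:**
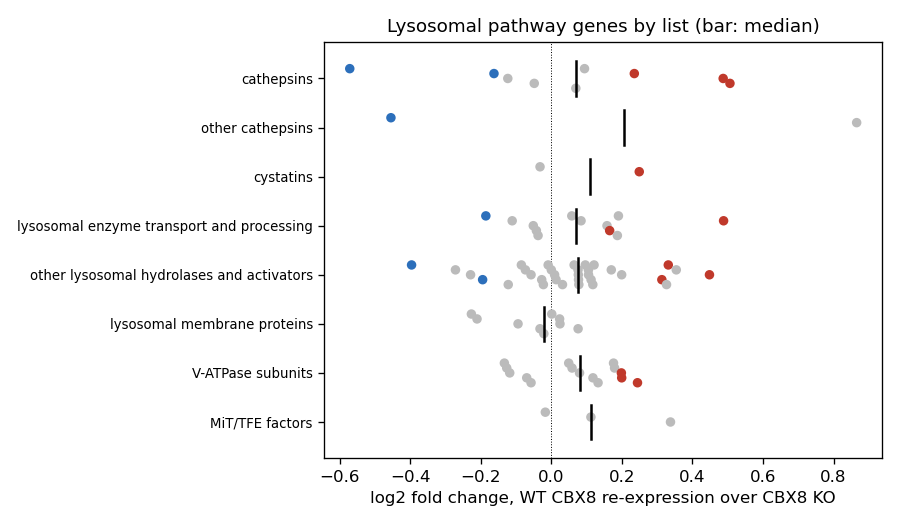
The horizontal axis gives the log2 fold change of WT CBX8 re-expression over CBX8 KO for the tested genes of each list, 1 point per gene (red, higher; blue, lower; grey, not past FDR < 0.05), with a bar at the median. The cathepsins spread from -0.57 to 0.51, and the tested membrane proteins from -0.23 to 0.08.

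Likeness to CTSF was measured as the root mean square difference of log2 CPM, centred on each gene's mean, over the 6 libraries and the 84 other tested genes of the family and pathway lists. The nearest were ARSA (0.1095), IDUA (0.1196) and CTSH (0.128), with FUCA1 almost level at 0.1281 and GAA at 0.133. These values were not set against counting error, so the order among them is not read as a result. IDUA, alpha-iduronidase, had 24 to 26 counts in CBX8 KO and 31 to 38 upon re-expression, without overlap, and its log2 fold change of 0.35 did not pass (edgeR adjusted p = 0.34). Exons of IDUA overlap those of SLC26A1 on the opposite strand. Among the members with the E-box, CTSF rose and CTSA and CTSD did not pass, and among the 4 without it CTSC fell, CTSH and CTSZ rose and CTSL did not pass.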

How the data were processed

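Poly(A) RNA of 6 T98G libraries was sequenced as 100 bp paired-end reads on the BGISeq500. According to the paper's methods and the submitters' processing notes, reads were trimmed with Trimmomatic and aligned to hg38 with HISAT2. Versions, counting program, annotation and strand setting are not given in the sources used here. The table the authors deposited holds raw, unnormalized counts, with a row for each gene symbol. Libraries were assigned from their titles.

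Low counts were filtered with filterByExpr in edgeR 4.0.16 (R 4.3.3). TMM factors, estimateDisp, glmQLFit and glmQLFTest followed at their defaults, with group as the only term. The Benjamini-Hochberg adjustment covered all tested genes, with FDR < 0.05 as in the paper's methods. Standard errors are the absolute log2 fold change over the square root of F, and 95% intervals normal approximations. Lengths and coordinates came from GENCODE 44 by symbol. The result of 1 listed gene is not reported here. Alternatives covered the scaling (RLE, upper quartile, library size), the filter, the tool (DESeq2 1.42.0, limma 3.58.1 voom, glmQLFit with legacy set to FALSE), a replicate block and leaving out each library.

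Named genes were the members, the other cathepsins with a count, up to 3 called genes per direction in each list, and the 3 genes nearest to CTSF. FUCA1 was added because it lay almost level with CTSH in likeness to CTSF. CTSG, CTSO, NEU1, GALC, GLB1, CST3, M6PR and the MiT/TFE factors were added for their roles or zeros after values were seen. Members and lists were chosen with earlier results of these data known.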

Additional observations from a re-analysis of the deposited data

How the results depend on the processing

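Of the 9 members tested, CTSC and CTSH kept direction and call under all 15 alternatives. Log2 fold changes that lost their call, at adjusted p-values given with the results, were 0.50 for CTSF with DESeq2, -0.11 for CTSB with library size scaling, and 0.23 for CTSZ with DESeq2 and 0.22 without the low-count filter. With the replicate number as a block, CTSB (-0.16, adjusted p = 0.060) and CTSZ (0.23, adjusted p = 0.058) lost theirs, and the number of members lower was 1. Deviations from the group means did not run together in same-numbered libraries (correlations of -0.09, -0.04 and -0.02 over 14442 genes), and the numbers were not read as a pairing. The highest correlation with another number was 0.09. The block left 739 genes higher and 766 lower over all tested genes. CTSA, which was not called, turned positive with library size scaling (0.0072).

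With 1 library left out, CTSA ranged from -0.07 to -0.02, CTSB from -0.19 to -0.14, CTSC from -0.61 to -0.54, CTSD from -0.185 to -0.0572, CTSF from 0.47 to 0.56, CTSH from 0.39 to 0.58, CTSK from -0.10 to 0.31, CTSL from -0.00061 to 0.15 and CTSZ from 0.19 to 0.28. CTSK and CTSL, not called, were the members whose sign turned in these fits, CTSK to -0.03, -0.10 and -0.04 without CBX8 KO replicate 2 and re-expression replicates 2 and 3, and CTSL to -0.00061 without re-expression replicate 1.

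The 3 members higher became 1 with DESeq2 and 2 at FDR < 0.01, without the low-count filter or with the replicate block. With 1 library left out they numbered between 1 and 3, lowest without re-expression replicate 2. The 2 members lower became 1 with library size scaling and at FDR < 0.01, and 1 to 3 with 1 library left out, highest without CBX8 KO replicate 1. Of the other pathway genes, the 9 higher became 14 with library size scaling, 4 with DESeq2 and 3 at FDR < 0.01, and 5 to 8 with 1 library left out. The 4 lower became 2 with upper quartile scaling or the block, 1 with library size scaling, DESeq2 or FDR < 0.01, and 1 to 3 with 1 library left out. Over all tested genes, library size scaling gave 1400 higher and 592 lower in place of 901 and 959. This setting leaves out the TMM factors, which were 0.971 to 0.987 in CBX8 KO and 1.01 to 1.03 in the re-expression libraries. The median log2 fold change of all tested genes was 0.060 with it and 0.005 with TMM. Upper quartile scaling gave 989 higher and 856 lower, and DESeq2 gave 501 higher and 676 lower. With 1 library left out, 593 to 792 were higher and 635 to 851 lower, the fewest without re-expression replicate 2. Calls thus also became fewer over all tested genes with DESeq2 and with 1 library left out. The stricter threshold lowers counts by construction, and leaving out these TMM factors moves log2 fold changes upward by construction. For the other settings the cause was not tested.

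Per kilobase, CTSF made up 0.638% and 0.964% of the members' counts in CBX8 KO and re-expression, and over the exon union its level was 2.01 and 2.85 CPM per kilobase. Fewer than 20 counts of CTSK in most libraries limit its precision.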
